A study of Mus musculus with 2 samples.

Results

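The cells described here were Spp1-high macrophages, 382 of the 8724 cells kept from the floxed control library and of 22639 kept in both libraries of the series. A member had C1qa, C1qb and C1qc together at 0.3% of its unique molecular identifiers (UMIs, 1 per captured transcript) or more, no UMI of Cd3d, Cd3e or Cd3g, S100a8 and S100a9 together under 1%, and Spp1 at 0.2% or more. They were set against 1652 cells of the same library with the same C1q minimum, no Spp1 UMI and at least 5000 UMIs, called Spp1-zero cells below. Both libraries held sorted CD45+ 7-AAD- cells of tumours grown from MC38, a mouse colon carcinoma line. One came from SPP1fl/fl-Lyz2-icre mice, in which Cre is driven by the Lyz2 gene of myeloid cells, and the other from SPP1fl/fl mice without Cre; both genotypes carried the floxed Spp1 allele. The number of mice, their age and the floxed exons were not given in the sources used here, and each library held cells with Xist and cells with Y-linked RNA, so each pooled at least 1 animal of each sex. With 1 library a genotype, cells are not replicates. No test was made, values are descriptions of these libraries, and intervals (95%) cover counting error only.

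Spp1 encodes osteopontin, a secreted glycoprotein that binds CD44 and several integrins through which cells adhere and migrate. In tumours it is made by a set of macrophages that lies apart from the macrophages rich in C1q and antigen-presentation genes, and that is often found in poorly perfused, hypoxic areas. The C1q genes encode the recognition protein of the classical complement pathway and mark tissue macrophages.

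The Spp1-high cells made up 4.38% of kept control cells (exact binomial interval 3.96 to 4.83%) and 6.27% of the 6089 control cells that met the C1q minimum (5.68 to 6.91%). They held 4.89% of all UMIs of the kept control cells and 32.4% of their Spp1 UMIs (20807 of 64266). In the SPP1fl/fl-Lyz2-icre library 2 of 10891 C1q cells met the same rule (0.0184%, 0.00222 to 0.0663%), and both carried at least 2 UMIs of another cell type's markers. Members had a median of 11041 UMIs (590 to 31601), 3068 genes and 1.57% mitochondrial UMIs, against 9642.5 UMIs, 2967 genes and 1.61% in Spp1-zero cells.

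By the rule, Spp1 ran from 0.200 to 4.47% of a member's UMIs, with a median of 0.348%, quartiles of 0.259 and 0.513% and a median of 39.5 UMIs per cell. The Spp1 share ran on across the threshold without a gap. The 83 members just inside it, at 0.2 to 0.25%, had a median of 0.226%, and the 148 cells just outside, at 0.15 to 0.2%, had a median of 0.169%. The 38 members with the most Spp1 UMIs held 34.8% of the members' Spp1 UMIs. C1q, also used by the rule, was at a median of 0.940% of UMIs in members and 1.48% in Spp1-zero cells.

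**Figure D1:**
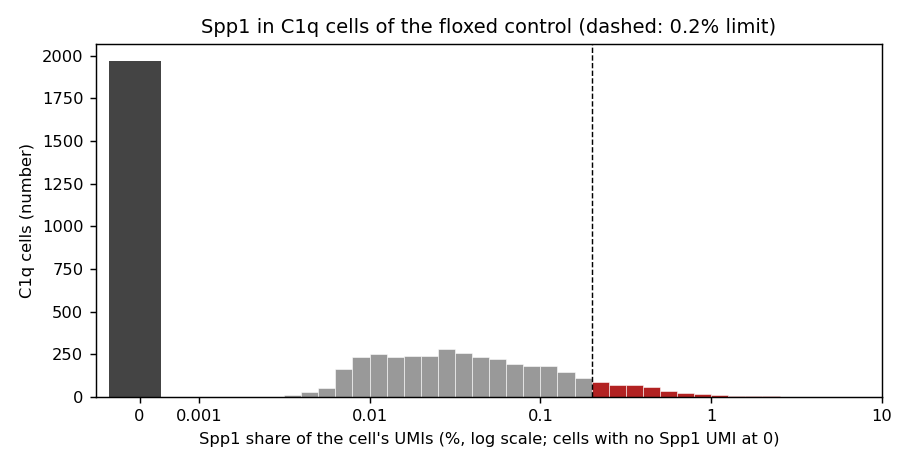
Share of UMIs from Spp1 per C1q cell of the floxed control that passed the Cd3 and S100 limits (x axis, percent on a log scale, with cells lacking a Spp1 UMI as a bar at 0) against the number of cells (y axis); red bars are the 382 members, to the right of the dashed 0.2% threshold. The members form the right-hand tail, with no gap at the threshold.

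The macrophage label held on markers that the rule did not use. All 15 macrophage identity markers passed 10 CPM (the UMIs of a gene, summed over the cells of a set and divided by the set's total in units of 1e6) in the mean of both sets. Cd68, a lysosomal membrane protein, was at 516 CPM in members and 423 CPM in Spp1-zero cells, and Csf1r, the receptor of the macrophage growth factor CSF1, at 434 and 608 CPM. A gene is called here where the 2 sets differ at least 1.5-fold, on log2(CPM + 5), with an interval of the ratio clear of 1. None of the 15 was called higher and 4 were called lower, beside 3.64% called higher and 4.67% lower of all 7748 genes measured; the 4 were Maf, Adgre1, Ms4a7 and Aif1. Adgre1 encodes the F4/80 antigen and was at 201 CPM in members, against 370 CPM in Spp1-zero cells. Ms4a7, a membrane protein of resident-type macrophages, was at 277 and 590 CPM. The 2 highest of the list were the integrin Itgam (539 and 376 CPM) and the endotoxin co-receptor Cd14 (1564 and 1133 CPM).

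Other cell types were sparse in members. The T and NK cell contrasts with Spp1-zero cells given here were partly built by the rule, through its Cd3 and S100 limits. In the 1522 Spp1-zero cells within those limits, T cell markers summed to 12.4 CPM and NK cell markers to 47.2 CPM, below the members' sums. With the limits on both sets the T cell list had a median log2 ratio of 0.0195 and the NK cell list 0.0771. Markers of another type reached 2 UMIs in 45 members (11.8%) and in 460 Spp1-zero cells (27.8%), of which 130 would have failed the Cd3 or S100 limits that applied to members only. Summed T cell markers were at 18.6 CPM in members and 116 CPM in Spp1-zero cells, NK cell markers at 65.2 and 95.8 CPM, B or plasma cell markers at 3.48 and 24.7 CPM with 5 of 6 at 0 in members, while dendritic cell markers were at 6.73 CPM in members, with Zbtb46 at 0, and their measured marker Ccr7 was called lower. Mast cell or basophil markers were at 2.78 and 14.3 CPM, with Mcpt8 and Ms4a2 at 0 in members. Fibroblast or tumour cell markers were at 17.4 and 120 CPM, with Lum, Col1a1, Krt8 and Krt18 at 0 in members. Endothelial markers were at 9.51 and 13.2 CPM. Neutrophil markers were at 295 and 122 CPM, which came from Clec4d, a lectin that macrophages also make; Csf3r, the receptor that defines neutrophils more closely, was at 15.1 and 32.4 CPM. Without cells holding such markers the T cell and fibroblast lists had median log2 ratios of 0.0087 and 0.0821, and 295 genes were called higher and 335 lower in members, of which 260 and 273 were among those called with all cells.

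Across 7748 genes measured, 282 (3.64%) were called higher and 362 (4.67%) lower in members, and the median log2 ratio was -0.09. Of the genes called higher, 267 had the same sign in female and in male cells, and of those called lower, 344 did. The female and male cells were most of the cells behind the calls, so this sharing was partly built in and is no replication. With median-of-ratios scaling in place of totals, 354 were called higher and 261 lower. The members were chosen on Spp1 in these same cells, so all of these values describe what goes with Spp1 in 1 library.

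Among the 15 named genes with the highest ratios, Fn1, which encodes the matrix protein fibronectin, was at 2423 CPM in members and 474 CPM in Spp1-zero cells, a 5.11-fold ratio (4.96 to 5.26). Arg1, which encodes arginase and consumes arginine, was at 2260 and 326 CPM (6.93-fold, 6.71 to 7.16). These were broad traits of the set. Thinned to 5000 UMIs a cell, which left out 48 shallower members, 91.9% of 334 members and 46.3% of 1652 Spp1-zero cells had a Fn1 UMI, and 83.2 and 33.9% had an Arg1 UMI. Before thinning, the Fn1 shares were 93.2 and 56.8% and the Arg1 shares 84.6 and 43.5%, over 382 and 1652 cells. Among 271 cells of the library with 2 or more Cd3 UMIs and little C1q, used as a guide to free RNA, the thinned shares were 18.8% for Fn1 and 10.7% for Arg1, at a median depth of 8093 UMIs, against 11618 in the 334 members and 9642.5 in Spp1-zero cells.

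Of the 15, 4 encode proteases. Ctsl, which encodes the lysosomal protease cathepsin L, was at 1141 CPM in members and 284 CPM in Spp1-zero cells (4.02-fold, 3.87 to 4.19), and 93.1% of thinned members and 68.6% of thinned Spp1-zero cells had a UMI of it (94.2 and 85.9% before thinning). Mmp12, the macrophage elastase, was at 759 and 138 CPM (5.51-fold, 5.23 to 5.82). Adam8, a membrane metalloprotease, was at 330 and 71.2 CPM, and Mmp13, a collagenase, at 125 and 29.9 CPM. Slpi, an inhibitor of neutrophil elastase, was at 110 and 13.9 CPM. A Slpi UMI was in 11.4% of thinned members and 3.27% of thinned Spp1-zero cells. It was in 13.4% of thinned cells under the C1q minimum and 2.58% of those with 2 or more Cd3 UMIs. One cell held 22.7% of the members' Slpi UMIs. Of 17 measured lysosomal proteases and hydrolases Ctsl and Ctsd were called higher and none lower, and the list's median log2 ratio was -0.08. Ctsb was at 1669 CPM in members and 1632 CPM in Spp1-zero cells.

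Of the others, Clec4d was at 245 CPM in members and 44.2 CPM in Spp1-zero cells, Pdpn (podoplanin, the ligand of the platelet receptor CLEC2) at 292 and 55.1 CPM, and Nt5e (CD73, which makes adenosine from AMP) at 123 and 27.4 CPM. Areg, a ligand of the EGF receptor, was at 170 and 40.5 CPM; a UMI of it was in 13.8% of thinned members, 5.57% of thinned Spp1-zero cells and 57 of the 271 Cd3-positive cells, a higher share, so its share in members is not above that guide. Rgcc, a regulator of cell cycle kinases, was at 247 and 62.5 CPM. Cxcl3, a chemokine that attracts neutrophils, had the highest ratio, at 466 and 27.0 CPM (17.3-fold, 15.6 to 19.1), but its UMIs lay in few cells, as described below. Egln3, which encodes an oxygen-dependent hydroxylase of hypoxia-inducible factor (HIF), was at 59.2 and 11.2 CPM, and Hilpda, which blocks the breakdown of lipid droplets, at 437 and 113 CPM. Hilpda UMIs were in 57.5% of thinned members, 25.3% of thinned Spp1-zero cells and 54.6% of Cd3-positive cells. They were in 42.8% of all thinned cells under the C1q minimum, and whether Cd3-positive cells make Hilpda was likewise not tested.

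**Figure D2:**
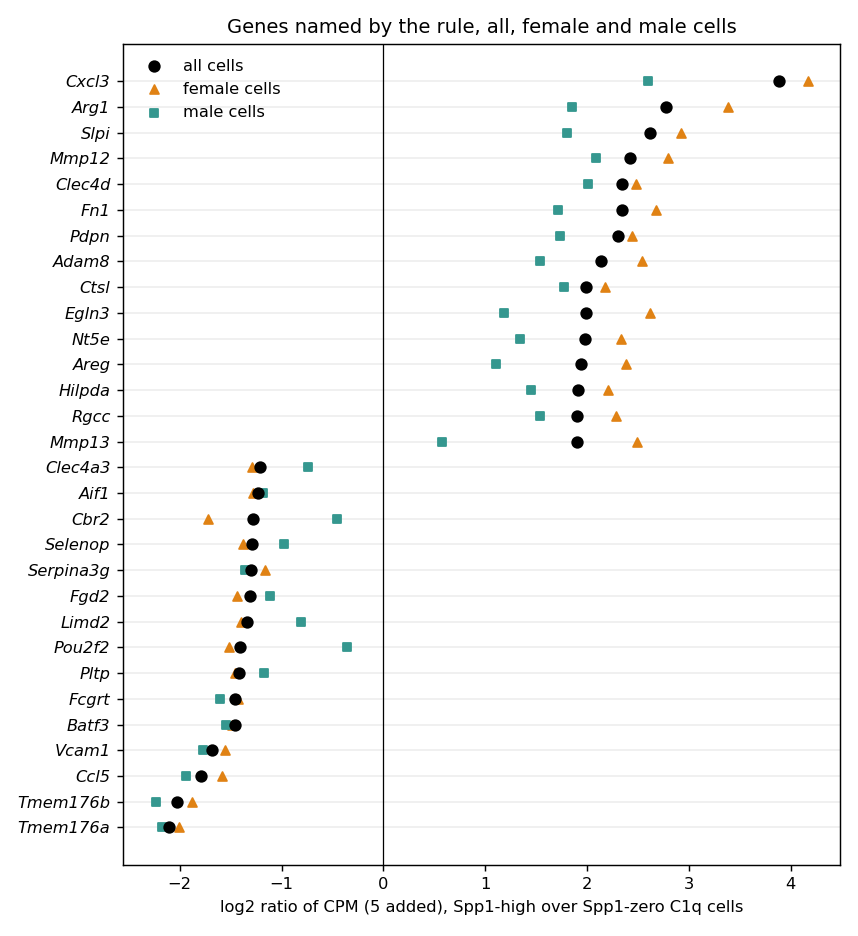
Log2 ratio (x axis, 5 CPM added) of Spp1-high over Spp1-zero cells of the floxed control for the 15 highest and 15 lowest named genes, for all cells (circles), female cells (triangles) and male cells (squares). Each gene lies on one side of 0 in all 3 because the naming rule required it. Cxcl3 is at 3.88 and Tmem176a at -2.10 for all cells, and the male values of the 15 upper genes lie nearer to 0 than the female ones.

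The 15 named genes with the lowest ratios were led by Tmem176a and Tmem176b, neighbouring genes for channel-like membrane proteins of myeloid cells. Tmem176b was at 119 CPM in members and 500.2 CPM in Spp1-zero cells (0.238-fold, 0.218 to 0.261), and 30.8 and 80.5% of thinned cells had a UMI of it, against 26.6% of the Cd3-positive cells and, before thinning, 39.0 and 89.5%. Tmem176a was at 84.9 and 381 CPM. Aif1, which encodes the actin-binding protein IBA1, was at 391 and 924 CPM, and Selenop, the selenium carrier of plasma, at 308 and 762 CPM. Pltp, a phospholipid transfer protein, was at 71.2 and 199 CPM, Fcgrt, the neonatal Fc receptor, at 39.7 and 117 CPM, and Vcam1, an adhesion molecule, at 22.5 and 83.1 CPM. The transcription factors Batf3 (20.2 and 64.4 CPM) and Pou2f2 (58.7 and 164 CPM) were in the group, with Clec4a3, Limd2, Fgd2, Serpina3g and Cbr2, whose log2 ratios were -1.21, -1.34, -1.31, -1.30 and -1.28. Ccl5, a chemokine that T cells also make in quantity, was at 74.7 and 270.0 CPM (log2 ratio -1.79). Its log2 ratio was -1.58 with the Cd3 and S100 limits put on both sets and -1.33 without cells that held markers of another type.

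Genes induced by low oxygen and genes of glycolysis were higher as groups. Of 17 measured hypoxia response genes 13 were called higher and none lower (76.5% of the list, beside 3.64% of all genes), with a median log2 ratio of 1.14. Egln3 and Hilpda led the list. Ankrd37 was at 72.4 CPM in members and 16.4 CPM in Spp1-zero cells, Bnip3, a mitophagy receptor, at 199.5 and 65.0 CPM, and Vegfa, the endothelial growth factor, at 278 and 124 CPM (2.25-fold, 2.09 to 2.42). The lowest of the list were Bnip3l and the histone demethylase Kdm3a, with log2 ratios of 0.33 and 0.01. Of 15 glycolysis genes 13 were called higher and none lower, with a median of 1.01. Slc2a1, the glucose transporter GLUT1, was at 202 and 66.5 CPM, the lactate exporter Slc16a3 at 234 and 92.4 CPM, and Gapdh at 2892 and 1595 CPM. The 2 not called were Pfkp and Hk2, with log2 ratios of 0.55 and 0.36. Hif1a, whose protein is regulated mainly by oxygen-dependent breakdown, was at 224 and 166 CPM and was not called. Vegfa UMIs were in 55.4% of thinned members, 29.4% of Spp1-zero cells and 13.7% of Cd3-positive cells (68.8 and 39.6% of members and Spp1-zero cells before thinning).

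The promoters of some of these genes were read from RefSeq (GRCm38.p6, 250 bases before to 50 after a start site) and searched on both strands. The motifs were ACGTG, a form of the core of the site HIF binds, and TGANTCA, the site of AP-1, a factor of many stress and matrix genes. Other forms of the HIF core, such as GCGTG, were not searched and are not marked. The windows below are those of Spp1 itself, of 3 hypoxia response genes with high ratios and of Mmp12; capitals mark matches to either motif. Spp1, Hilpda and Mmp12 have 2 windows each, of which 1 is printed; for Hilpda and Mmp12 it was picked because it held the match described.
Spp1 (chr5:104434861-104435160, plus strand): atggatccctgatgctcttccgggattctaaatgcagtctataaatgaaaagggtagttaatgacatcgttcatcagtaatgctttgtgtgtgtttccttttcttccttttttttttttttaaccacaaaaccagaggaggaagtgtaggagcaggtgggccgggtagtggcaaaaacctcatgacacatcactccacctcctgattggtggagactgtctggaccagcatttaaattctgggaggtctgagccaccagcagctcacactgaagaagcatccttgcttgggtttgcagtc
Egln3 (chr12:54203825-54204124, minus strand): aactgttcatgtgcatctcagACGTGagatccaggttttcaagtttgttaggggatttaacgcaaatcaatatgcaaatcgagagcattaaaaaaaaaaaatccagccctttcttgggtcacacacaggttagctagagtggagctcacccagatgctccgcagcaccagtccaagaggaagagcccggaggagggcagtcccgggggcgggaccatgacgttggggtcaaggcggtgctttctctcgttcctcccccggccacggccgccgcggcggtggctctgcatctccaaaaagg
Hilpda (chr6:29272376-29272675, plus strand): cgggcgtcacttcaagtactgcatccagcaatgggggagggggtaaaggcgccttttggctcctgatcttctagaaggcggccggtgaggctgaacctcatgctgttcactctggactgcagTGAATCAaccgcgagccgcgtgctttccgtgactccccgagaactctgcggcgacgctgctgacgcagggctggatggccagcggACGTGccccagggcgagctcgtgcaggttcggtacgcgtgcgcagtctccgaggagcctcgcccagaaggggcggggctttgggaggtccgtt
Ankrd37 (chr8:45999801-46000100, minus strand): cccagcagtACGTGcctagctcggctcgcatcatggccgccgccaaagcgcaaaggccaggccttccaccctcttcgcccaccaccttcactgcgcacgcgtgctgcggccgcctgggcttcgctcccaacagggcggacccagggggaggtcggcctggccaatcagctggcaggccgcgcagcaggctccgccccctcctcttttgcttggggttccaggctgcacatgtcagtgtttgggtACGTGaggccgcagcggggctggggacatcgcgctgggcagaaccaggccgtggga
Mmp12 (chr9:7347124-7347423, plus strand): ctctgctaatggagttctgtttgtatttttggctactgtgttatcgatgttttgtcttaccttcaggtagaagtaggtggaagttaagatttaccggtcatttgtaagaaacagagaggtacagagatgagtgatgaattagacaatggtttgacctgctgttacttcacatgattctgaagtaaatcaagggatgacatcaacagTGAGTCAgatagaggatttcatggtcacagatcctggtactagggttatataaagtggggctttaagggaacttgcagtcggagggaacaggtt
Egln3 and Hilpda each had 1 ACGTG match in the window shown and Ankrd37 had 2, while Hilpda and Mmp12 each had 1 TGANTCA match. The other Mmp12 window held neither motif, and the other Hilpda window held no ACGTG and 1 TGANTCA match. Neither Spp1 window held either motif, which says only that these letters are not in them. At least 1 ACGTG match was present in 12 of the 12 called hypoxia response genes with a RefSeq window, in 9 of 13 called glycolysis genes, in 6 of 13 named genes with high ratios and in 1 of 13 with low ratios, beside 21.8% of 27025 genes. The hypoxia response list is made of known HIF targets, and genes with several start sites had more than 1 window (1.33 windows a gene in that list and 1.22 over all genes). TGANTCA was present in 3 of 8 called matrix genes, in 3 of 13 named genes with high ratios and in 0 of 13 with low ratios, and also in 2 of 5 interferon-gamma genes called lower, in 1 of 12 called hypoxia response genes and in 1 of 13 called glycolysis genes, beside 8.97% of all genes. Matches of this motif were thus found in promoters of genes called in either direction. The matches of the 2 motifs did not overlap in the windows shown, and a match is a description, not a bound site.

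Matrix and angiogenic factors were the list with the highest median among those of 10 or more measured genes, at 1.30, with 12 of 18 called higher and none lower. Beside Fn1 and Mmp12, Thbs1, which encodes the adhesive protein thrombospondin, was at 941 CPM in members and 395 CPM in Spp1-zero cells, and Inhba, the activin A subunit, at 63.3 and 8.96 CPM. Hbegf, a ligand of the EGF receptor, was at 42.0 and 7.34 CPM, and the protease inhibitor Timp1 at 34.6 and 6.24 CPM. The lowest were Tgfb1, at 238 and 243 CPM, and Timp2, at 115 and 147 CPM. Within the list, then, fibronectin and thrombospondin were higher and the interval of the Tgfb1 ratio included 1 (0.913 to 1.05).

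The lipid-associated macrophage genes were split. Of 17 measured, 10 were called higher and none lower, with a median of 0.64. Lgals3, the lectin galectin-3, was at 4057 CPM in members and 1631 CPM in Spp1-zero cells, Fabp5, a fatty acid carrier, at 955 and 363 CPM, the tetraspanin Cd9 at 730.0 and 260.0 CPM, and Plin2, a lipid droplet coat protein, at 417 and 193 CPM. Fabp4 was at 27.8 and 4.45 CPM. Trem2, the lipid receptor by which such macrophages are usually known, was at 595 and 536 CPM and was not called (log2 ratio 0.15). Apoe and Cd63 were lowest, with log2 ratios of -0.56 and -0.20. Iron handling showed a like split: Hmox1, which breaks down haem, was at 249 and 88.4 CPM and Fth1, ferritin heavy chain, had a log2 ratio of 0.61, while Trf was called lower and the list's median over 9 genes was -0.06. Of 10 phagocytic receptor genes 3 were called higher (Cd36, Cd300lf and Lrp1) and 2 lower (Stab1 and Gas6).

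Genes used to mark opposite poles of macrophage activation were both among those called higher. Of 11 alternative activation genes 5 were called higher (Arg1, Chil3, Slc7a2, Ccl24 and Msr1) and Stab1 lower, with a median of -0.12. The mannose receptor Mrc1 was at 481 CPM in members and 544 CPM in Spp1-zero cells, and Mgl2 at 299 and 446 CPM. Of 15 pro-inflammatory genes 6 were called higher and none lower, with a median of 0.39. Nos2, which like Arg1 uses arginine, was at 58.9 and 6.76 CPM, Il6 at 33.2 and 4.51 CPM, Il1a at 276 and 85.4 CPM and Il1b at 2709 and 1496 CPM. The Nos2 and Il6 UMIs of members lay in few cells, as described below. Tnfaip3 and Cd40 had the lowest log2 ratios of the list, -0.30 and -0.34. In male cells alone Il1b, Ptgs2, Chil3 and Stab1 had log2 ratios of -0.03, -0.11, -0.12 and 0.09, opposite in sign to those of all cells, and with C1q matched at 0.6 to 1.2% in both sets Ccl24 had -0.0060 and Stab1 0.0344. Of the suppressive factors, Arg1 and Nt5e were called higher and none of the 12 lower.

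Genes of the interferon-gamma response and of antigen presentation on MHC class II were lower. Of 15 measured interferon-gamma response genes none was called higher and 9 were called lower, with a median of -0.75. Cxcl9, which attracts T cells, was at 437 CPM in members and 739 CPM in Spp1-zero cells (0.592-fold, 0.564 to 0.621), and Ciita, the activator of class II genes, at 43.9 and 103 CPM. The guanylate-binding protein gene Gbp7 was at 71.0 and 159 CPM. The 2 highest were Cd274 (PD-L1), at 97.0 and 78.8 CPM, and Socs1, with a log2 ratio of -0.18. Of 7 class II genes 5 were called lower, with a median of -0.73. H2-Aa was at 3008 and 5063 CPM, H2-Ab1 at 2887 and 5144 CPM and H2-Eb1 at 2629.6 and 4783 CPM, and the highest of the list, Cd74 and H2-DMb1, had log2 ratios of -0.56 and -0.58. Of 15 MHC class I genes 1, Nlrc5, was called lower, and their median was -0.41. The type I interferon-stimulated genes differed from this: 3 of 12 were called higher (Rsad2, Ifit1 and Ifit3) and none lower, with a median of 0.22, though Ifit3 had a log2 ratio of -0.0502 with C1q matched. One cell held 21.8% of the members' Rsad2 UMIs. Ifit1 and Ifit3 fell under 1.5-fold in 4 and 5 of the 24 alternative settings.

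Chemokines went both ways. Of 17 measured, 7 were called higher and 6 lower. Higher were the neutrophil attractants Cxcl3, Cxcl1 (846 CPM in members and 381 CPM in Spp1-zero cells) and Cxcl2, with Ccl6 (1218 and 352 CPM), Ccl9, Pf4 and Cxcl14. Lower were Ccl22 (4.41 and 33.6 CPM), Ccl17, Ccl8 (132 and 273 CPM), Ccl4, Ccl12 and Ccl5, which attract T cells or monocytes. Monocyte genes were also split, with Fn1, Vcan, F10 and Chil3 called higher and Ly6c2 and Plac8 lower; Vcan, a matrix proteoglycan, was at 44.1 and 8.09 CPM and Ly6c2 at 14.2 and 24.5 CPM. The monocyte chemokine receptor Ccr2 was at 531 and 518 CPM.

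**Figure D3:**
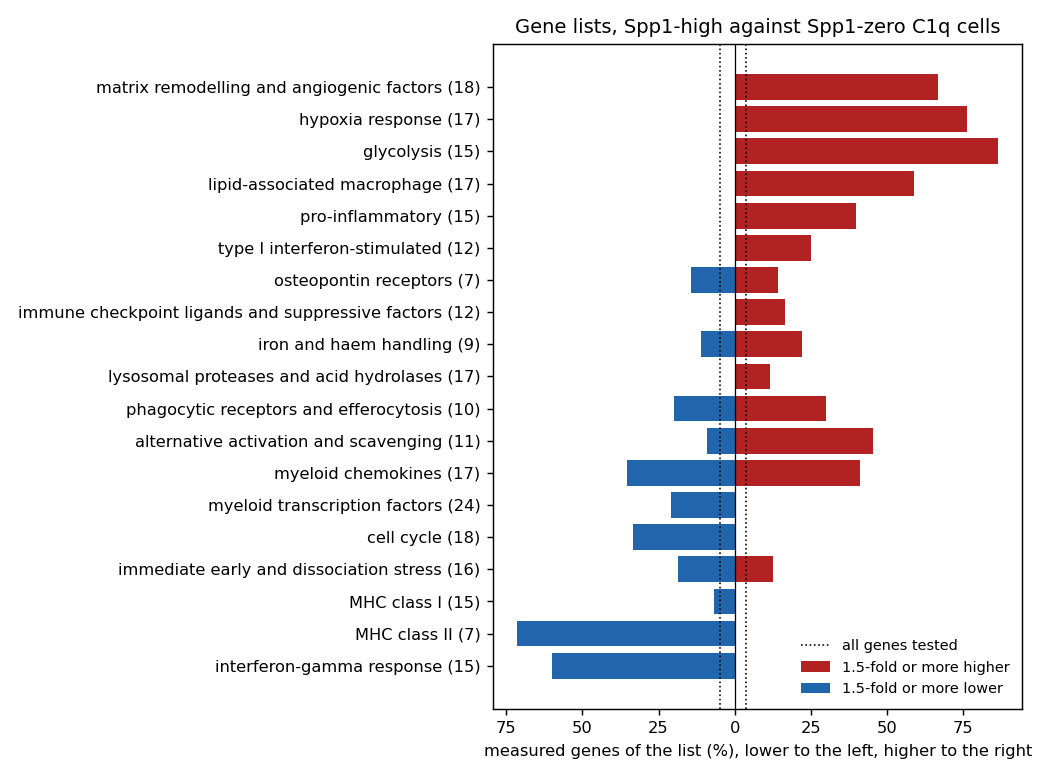
Share of the measured genes of each list (number in brackets) that were called higher (red, to the right) or lower (blue, to the left) in Spp1-high over Spp1-zero cells, in percent, with dotted lines at the shares over all genes tested (3.64% higher and 4.67% lower). The glycolysis, hypoxia and matrix lists had genes called higher and none lower, and the interferon-gamma and MHC class II lists had genes called lower and none higher.

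The receptors of osteopontin had a list median log2 ratio of 0.04, with single receptors differing in both directions. Of 7 measured, Itga5 was called higher (61.0 CPM in members and 36.9 CPM in Spp1-zero cells) and Itga9 lower (11.6 and 37.1 CPM). Cd44 was at 473 and 316 CPM, with a log2 ratio of 0.57, and Itga4 had a log2 ratio of -0.56; neither was called. Itgb3, a partner of Itgav in the osteopontin receptor of osteoclasts, was at 1.16 and 1.27 CPM, under the minimum. Osteopontin is a product of osteoclasts too, but Acp5, an osteoclast phosphatase, was at 26.9 and 61.4 CPM, and the summed osteoclast markers were at 103 and 150 CPM.

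No regulator or cell cycle gene of the lists was called higher. Only 3.64% of all genes were, so few such calls would be made in lists of this size. Called lower were 20.8% of the measured transcription factors and 33.3% of the cell cycle genes, beside 4.67% of all genes. Of 24 myeloid transcription factors none was called higher and 5 were called lower (Maf, Nr1h3, Atf3, Jun and Klf2); the highest were Bhlhe40 and Hif1a, with log2 ratios of 0.53 and 0.42. Klf2 was at 0.04 in male cells alone. Of 18 cell cycle genes 6 were called lower, among them Mki67 and 4 of the MCM helicase genes, and none higher. Cells with 2 or more UMIs of cycling genes made up 20.2% of members and 27.6% of Spp1-zero cells. Without cycling cells in both sets 305 genes were called higher and 379 lower, of which 253 and 275 were among the 282 and 362. Of 16 immediate early and dissociation stress genes 2 were called higher (Hspa1b and Ier3) and 3 lower (Egr1, Atf3 and Jun).

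Within members, genes fell into broad and concentrated ones. The 38 members with the most UMIs of a gene held 33.0% of the Fn1 UMIs, 40.3% of the Arg1 UMIs and 39.0% of the Ctsl UMIs, close to the 34.8% for Spp1 itself. The 38 richest in each held 91.9% of Cxcl3 UMIs, 96.2% of Areg UMIs, 91.1% of Mmp13 UMIs, 93.3% of Nos2 UMIs and 94.9% of Inhba UMIs. One cell held 14.7% of Cxcl3 UMIs and another 23.2% of Mmp13 UMIs. Thinned to 5000 UMIs, 24.3% of members and 5.69% of Spp1-zero cells had a Cxcl3 UMI, beside 6.27% of Cd3-positive cells (28.3 and 8.66% before thinning). Of the 38 members with the most Cxcl3, 16 were among the 38 with the most Arg1, 16 among those with the most Inhba and 2 among those with the most Fn1. The levels per cell were as follows for members of 5000 UMIs or more. Arg1 had quartiles of 408, 1436 and 3037 CPM, against 0, 0 and 207 CPM in Spp1-zero cells. Fn1 had quartiles of 609, 1929 and 3401 CPM, against 0, 97.7 and 447 CPM. H2-Aa overlapped more, with quartiles of 306, 2005 and 4579 CPM in members and 490, 4893 and 8230 CPM in Spp1-zero cells.

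**Figure D4:**
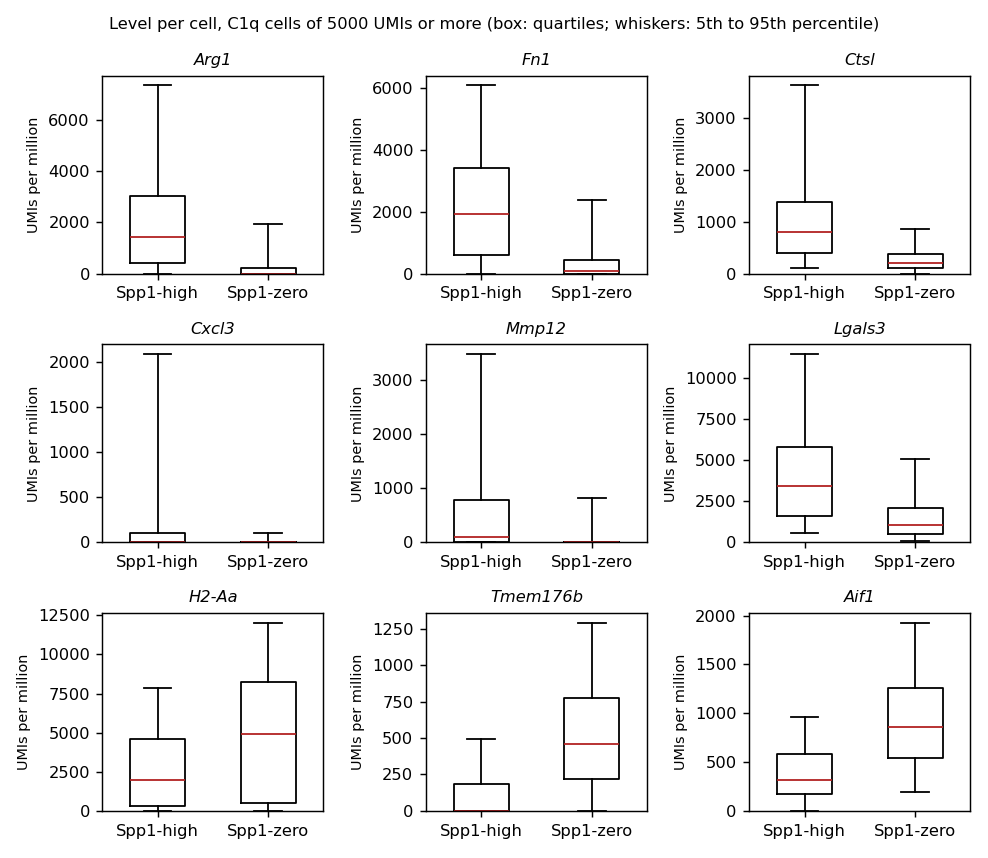
UMIs of 9 genes per cell, as CPM (y axis, linear), in 334 Spp1-high and 1652 Spp1-zero cells of 5000 UMIs or more; boxes span the quartiles, the red line is the median and the whiskers reach to the outer percentiles named in the title. The Arg1, Fn1 and Ctsl boxes of the sets do not overlap, Cxcl3 has a median of 0 in both sets, and the H2-Aa boxes overlap widely.

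The levels of the same genes were also read along Spp1. The lowest bin and the 3 highest hold cells of the 2 sets by which the genes were named, so their order from end to end follows largely from that choice and is a description; the cells between 0 and 0.2% Spp1 were in neither set. C1q cells of 5000 UMIs or more within the Cd3 and S100 limits were binned at no Spp1 UMI (1522 cells), above 0 to 0.05% (2121), 0.05 to 0.2% (898), 0.2 to 0.5% (246), 0.5 to 1% (64) and 1% or more (24). From the lowest bin to the highest, Arg1 stood at 337, 497, 958, 1933, 2911 and 4200 CPM and Fn1 at 484, 948, 1683, 2203, 2864 and 2869 CPM. Fn1 was thus level over the last 2 bins while Arg1 was not. Tmem176b stood at 512, 374, 242, 140, 73.0 and 24 CPM. Trem2 stood at 550, 505, 550, 621, 534 and 483 CPM. The median log2 ratio over the lowest bin ran through 0.11, 0.50, 1.02, 1.45 and 1.98 for the matrix list, 0.18, 0.59, 0.99, 1.21 and 1.51 for the hypoxia list, and 0.12, -0.08, -0.68, -0.91 and -1.32 for MHC class II. The cell cycle list stood at 0.40, 0.38, -0.16, -0.84 and -1.65, so it was highest in the bins with little Spp1. The type I interferon list stood at 0.02, -0.14, 0.29, 0.55 and -0.40, with no steady direction. The median UMIs per cell were 9522, 11584, 11829.5, 11512.5, 11841.5 and 12908 over the bins, and the share of female cells among sexed ones was 78.9, 69.0, 60.4, 62.5, 60.0 and 57.1%; the part of either was not tested in the bins.

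**Figure D5:**
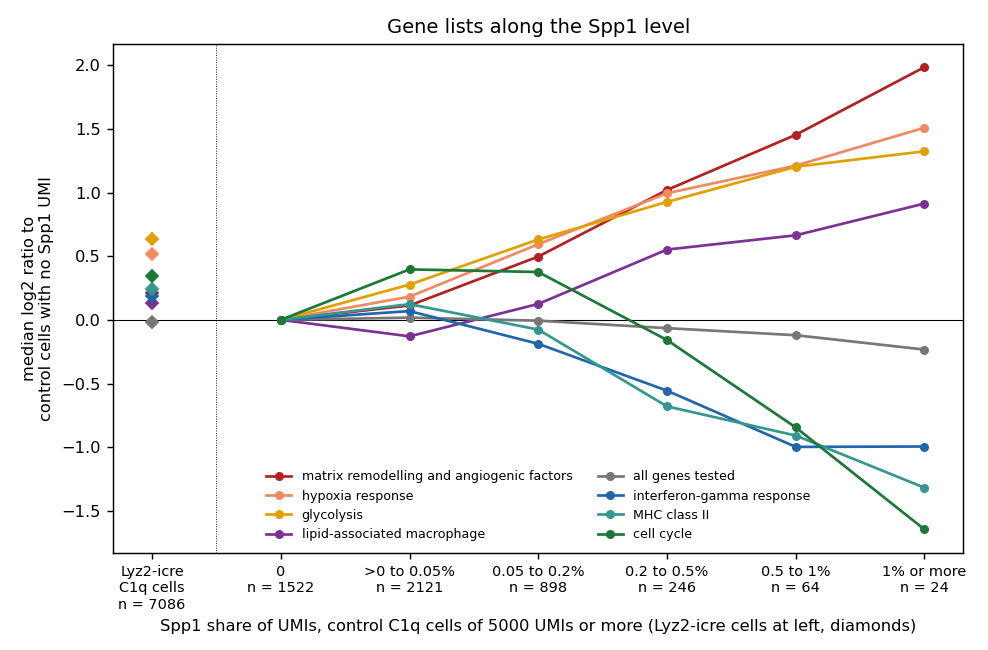
Median log2 ratio of the genes of each list to the control cells with no Spp1 UMI (y axis) over bins of the Spp1 share of UMIs in C1q cells of the floxed control, low to high (x axis, with the number of cells), and in C1q cells of the SPP1fl/fl-Lyz2-icre library at the left (diamonds). At 1% Spp1 or more the matrix list stands at 1.98 and the MHC class II list at -1.32, with all genes at -0.23.

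Most called genes had the same direction in cells that neither set contained. Those cells were still ordered by Spp1, the value the rule used, in the same library and pool of animals. The shared direction thus describes the same Spp1 axis and is no independent support. The female share also differed between the bins compared, as given above. The 898 cells at 0.05 to 0.2% Spp1 were set against the 2121 cells above 0 and up to 0.05%, in the same library. Of the thinned Cd3-positive cells 28.4% had a Spp1 UMI, and the 90th percentile of their Spp1 share was 0.0545%. Whether Spp1 in the lower bin came from free RNA was not tested. Of the 282 genes called higher in members 272 had a log2 ratio above 0 there (96.5%; median 0.30), and of the 362 called lower 345 were below 0 (95.3%; median -0.24), beside 40.0% above 0 over all genes. All 15 named genes of each direction kept their sign. All 15 glycolysis genes and 16 of 17 hypoxia response genes were above 0, and all 15 interferon-gamma and all 7 MHC class II genes were below 0. Arg1 was at 958 CPM in the cells with more Spp1 and 497 CPM in those with less (1.93-fold, 1.88 to 1.98). Pro-inflammatory genes were less even, with 10 of 15 above 0, and the type I interferon genes went against the members, with 2 of 12 above 0.

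Female and male cells come from different animals of the pool, so they offered a comparison within each sex. Members held 200 female and 116 male cells (63.3% female of sexed cells) and Spp1-zero cells 1150 and 300 (79.3%). Members were 5.52% of female C1q cells (4.80 to 6.32%) and 8.39% of male ones (6.99 to 9.98%). Among female cells Arg1 was at 2265 CPM in members and 212 CPM in Spp1-zero cells, and among male cells at 2511 and 691 CPM. Fn1 was at 2640 and 409 CPM in female cells and at 2355 and 717 CPM in male cells. Several lists had smaller ratios in male cells: the matrix list's median was 1.62 in female and 0.66 in male cells, hypoxia 1.42 and 0.61, and glycolysis 1.24 and 0.53. Male Spp1-zero cells had more Vegfa, at 236 CPM beside 85.0 CPM in female ones, and male members had 363 CPM beside 225 CPM in female members. The MHC class II median was -0.57 in female and -1.05 in male cells. The monocyte list's median was 1.15 in female and -0.20 in male cells. The number of animals behind each sex was not given, and these differences were not tested.

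In the SPP1fl/fl-Lyz2-icre library, 7086 C1q cells of 5000 UMIs or more had Spp1 at 6.49 CPM, so no set could be chosen there by Spp1. Values are set beside those of the 4875 control C1q cells of 5000 UMIs or more, whatever their Spp1. Arg1 was at 1106 CPM in Lyz2-icre and 676 CPM in control cells, Fn1 at 1185 and 1075 CPM, Ctsl at 445 and 380 CPM, Mmp12 at 429 and 265 CPM, and Lgals3 at 2743 and 2182 CPM. Vegfa was at 152 and 153 CPM. On the scale of the bins, over control cells with no Spp1 UMI, the Lyz2-icre cells had list medians of 0.63 for glycolysis, 0.52 for hypoxia, 0.21 for the matrix list and 0.24 for MHC class II. Cxcl3 was at 38.8 and 76.5 CPM, Slpi at 7.53 and 22.8 CPM, and Tmem176b at 230.4 and 366 CPM. For Arg1, Fn1, Ctsl and Mmp12 the Lyz2-icre levels lay between those of control Spp1-zero cells and members. So did the levels of the 4875 control cells, so lying between carries no information on the loss of Spp1. Slpi in Lyz2-icre cells, at 7.53 CPM, was within the counting interval of the control bin with no Spp1 UMI (8.72 CPM, 7.32 to 10.3). What the loss of Spp1 does to these genes was not tested. Median depth was 8401 UMIs in the Lyz2-icre cells and 10921 in the control cells, and genotype cannot be told apart from library or animal. Lyz2 itself was at 3971 CPM in Lyz2-icre C1q cells, and at 15717 CPM in members and 10345 CPM in Spp1-zero cells of the control. It is the gene whose regulatory sequence drives Cre in those mice.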

How the data were processed

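Libraries of sorted CD45+ 7-AAD- cells had been made with 10x Genomics 3' (v3) chemistry, 1 per genotype, per the labels. The matrices hold raw UMI counts deposited by the authors, with bcl2fastq 5.0.1, Cell Ranger and mm10 named in the submitters' processing notes. Per the file headers, Cell Ranger was version 8.0.1. The annotation release was not given in the sources used here. Of 13944 Lyz2-icre and 9154 control barcodes, 13915 and 8724 were kept (at least 300 genes, 500 UMIs and at most 15% mitochondrial UMIs), with 98256831 and 88047097 UMIs and medians of 6374 and 9379.5 per cell. The libraries shared 43 barcodes, 1 of them a member's. As the matrices list called cells only, free RNA was not removed, and no doublet caller was run; cells with 2 UMIs of another type's markers were left out as an alternative.

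UMIs were summed per set and scaled to CPM, and log2 ratios were taken with 5 CPM added, over genes of 10 CPM or more in the mean of both sets; genes used by the rule were left out. Intervals are exact Poisson for CPM, conditional binomial for ratios and Clopper-Pearson for shares. Spp1 (ENSMUSG00000029304) lies on chromosome 5 at 104435118 to 104441050, plus strand, in GENCODE M21 of mm10. UMI counts at the 3' end compare a gene between sets, and levels were not compared between genes. For naming, called genes were ranked by log2 ratio and 15 taken at each end, from those that had 50 CPM in the higher set, a UMI in 10% of its thinned cells, and the same sign in female and male cells (by Xist and Y-linked RNA) and for the mean of per-cell CPM. Ribosomal, mitochondrial, receptor-segment, sex-linked and unnamed genes were left out, and the 2 highest and 2 lowest of each list may be named; others of a list were chosen after their values were seen. The members and lists were chosen with earlier results of these data known. The calling script was tested on simulated data. Python 3.11.15, numpy 2.4.6, scipy 1.17.1 and pandas 2.3.3 were used.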

Additional observations from a re-analysis of the deposited data

Results flagged for a closer look

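The following log2 ratios of Spp1-high over Spp1-zero cells had opposite signs in female and male cells, with the difference given as female minus male. Chil3 differed by 2.22 (2.09 in female and -0.12 in male cells), Ptgs2 by 1.55 (1.44 and -0.11) and Il1b by 1.37 (1.35 and -0.03). The monocyte list's median differed by 1.35 (1.15 and -0.20). The difference was -0.78 for Stab1 (-0.69 and 0.09), -1.33 for Klf2 (-1.29 and 0.04), -1.47 for Sparc (-1.35 and 0.13) and -2.93 for Col3a1 (-2.66 and 0.28). The library pools animals, there is no replicate, and none of these differences was tested.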

How the results depend on the processing

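No paired analysis was possible because each genotype had 1 library and nothing could be paired. Beside the 382 members, 282 genes higher and 362 lower, a Spp1 threshold of 0.1% gave 820 members and 205 genes lower, and one of 0.5% gave 102 members, 447 genes higher and 943 lower. Adding 20 CPM gave 155 genes lower, and no filter on low genes 562. Across the 24 alternatives genes higher ran from 190 to 447. All 30 named genes kept their sign in all of them. The naming rule had required this for female cells, male cells and the mean of per-cell CPM, so it could not fail there. Cbr2 fell under 1.5-fold in 2 alternatives, and Mmp13 and Pou2f2 in 1 each. Matching C1q at 0.6 to 1.2% in both sets, an alternative chosen after seeing the data, gave 239 genes higher and 397 lower, of which 186 and 199 were among the 282 and 362 and 2 were called the other way; there Ccl24 was at -0.006, Ifit3 at -0.0502 and Stab1 at 0.0344. With C1q at 0.6% or more Ifit3 was at -0.0919.

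Log2 ratios of marker lists changed sign where cells of other types were removed, since those cells were chosen by such genes. Without cells holding 2 foreign marker UMIs the T cell list was at 0.0087, the fibroblast or tumour cell list at 0.0821, Sparc at 0.13, Trac at 0.0527 and Col3a1 at 0.0314. With the Cd3 and S100 limits on both sets the T cell list was at 0.0195, the NK cell list at 0.0771, Nkg7 at 0.52 and Trac at 0.0471. Without foreign markers and at 5000 to 20000 UMIs in both sets, also chosen after seeing the data, the fibroblast or tumour cell list was at 0.0746, Sparc at 0.20 and Nkg7 at 0.0031. In male cells alone the monocyte list was at -0.20, the fibroblast or tumour cell list at 0.20, Chil3 at -0.12, Ptgs2 at -0.11, Il1b at -0.0274, Stab1 at 0.0865, Klf2 at 0.0388, Sparc at 0.13 and Col3a1 at 0.28. Where no construction is named, the cause was not tested. The 10 CPM minimum is a chosen filter, and 116 male members limit the male values.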

Other observations

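Spp1 at 0.2% of UMIs or more was also found outside the C1q cells, in 36 of 3024 kept non-C1q cells of the SPP1fl/fl-Lyz2-icre library and 270 of 2635 of the floxed control. Of the 36 Lyz2-icre cells 35 had at least 2 UMIs of T or NK cell markers, and their NK cell markers summed to 6603 CPM, with Arg1 at 55.6 CPM. Of the 270 control cells 229 had a UMI of Cd68 or Csf1r and 46 had at least 2 UMIs of T or NK cell markers, and Arg1 was at 3970 CPM, Fn1 at 2935 CPM and Mmp12 at 1756 CPM. Another 27 control C1q cells had Spp1 at 0.2% or more and were left out for Cd3 or S100 UMIs.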
